A study of Homo sapiens with 10 samples.

Results

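The 10 genes described here encode heat shock proteins of the cytosol and mitochondria and some of their co-chaperones. They were taken from a table of 20289 genes by Ensembl gene ID. HSPA1A (ENSG00000204389), HSPA1B (ENSG00000204388) and HSPA8 (ENSG00000109971) encode cytosolic Hsp70 proteins, the first of them the stress-inducible near-identical pair and HSPA8 the constitutive form. HSPB1 (ENSG00000106211) encodes the small heat shock protein Hsp27, and HSP90AA1 (ENSG00000080824) the inducible form of cytosolic Hsp90. DNAJB1 (ENSG00000132002), HSPH1 (ENSG00000120694) and BAG3 (ENSG00000151929) encode partners of Hsp70. HSPD1 (ENSG00000144381) and HSPE1 (ENSG00000115541) encode Hsp60 and Hsp10, the mitochondrial chaperonin and its lid. The table holds 10 of the 10 genes, and each passed the filter on low values in every comparison.

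The values are ribosome footprint levels in CFPAC-1 and PANC-1, established lines of human pancreatic ductal adenocarcinoma. In CFPAC-1, 2 libraries came from cells given imidazole ketone erastin (IKE) at 10 µM and 2 from cells given 0.1% DMSO. In PANC-1, 4 libraries came from cells given IKE at 1 µM and 2 from cells given 0.1% DMSO. IKE belongs to the erastin class of compounds, which block cystine uptake and induce ferroptosis, a form of cell death driven by iron and lipid peroxidation. The treatment labels state 24 h of exposure while the extraction protocol states 5 days, so the duration is not settled. Dead cells and debris were washed away, so the libraries describe cells that had survived. The labels number the libraries of a group as separate biological replicates, and the IKE dose differed between the lines.

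Hsp70 binds exposed hydrophobic stretches of unfolded proteins and cycles with ATP. J-domain proteins such as DNAJB1 bring it clients and start its ATP hydrolysis, and nucleotide exchange factors such as HSPH1 and BAG3 release the client. Hsp90 acts on later folding stages of kinases and receptors, small heat shock proteins such as HSPB1 hold unfolded proteins without ATP, and Hsp60 with Hsp10 folds proteins inside mitochondria. Transcription of many of these genes is raised by heat shock factor 1 (HSF1), which binds inverted repeats of a short unit, GAA and its complement TTC, in their promoters. HSPB1 is known from work on other cancer lines as a protein that restrains ferroptosis.

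The upstream sequences of 6 of the genes are printed: the inducible pair, HSPA8, HSPB1, DNAJB1 and HSPH1. No comparison of levels below uses these sequences. They are from RefSeq (GRCh38.p14), run 5′ to 3′ on the coding strand over the 250 bases before an annotated start, and carry in capitals each match to GAANNTTC or TTCNNGAA, letters that read the same on both strands. HSPA1A (chr6:31815543-31817942) and HSPA1B (chr6:31827738-31830254) lie 9795 bases apart on the plus strand, which also carries HSPB1 (chr7:76302673-76304292). HSPA8 (chr11:123057489-123062462), DNAJB1 (chr19:14514769-14560391) and HSPH1 (chr13:31134973-31162388) lie on the minus strand. The windows shown for HSPA8 and DNAJB1 lie inside the annotated gene, before a start other than the outermost one, and 1 of 3 DNAJB1 windows is shown, the one with matches.
HSPA1A, chr6:31815293-31815542, plus strand: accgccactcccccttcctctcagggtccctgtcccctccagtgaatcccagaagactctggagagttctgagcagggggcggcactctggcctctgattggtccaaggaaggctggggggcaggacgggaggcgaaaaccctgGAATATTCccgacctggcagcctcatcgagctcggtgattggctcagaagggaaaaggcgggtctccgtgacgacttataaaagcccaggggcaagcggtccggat
HSPA1B, chr6:31827488-31827737, plus strand: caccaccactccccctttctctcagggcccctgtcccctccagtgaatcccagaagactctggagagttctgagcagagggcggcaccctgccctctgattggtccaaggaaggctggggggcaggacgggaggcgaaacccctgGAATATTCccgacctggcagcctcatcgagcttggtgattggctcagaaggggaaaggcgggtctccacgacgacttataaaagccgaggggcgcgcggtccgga
HSPA8, chr11:123062137-123062386, minus strand: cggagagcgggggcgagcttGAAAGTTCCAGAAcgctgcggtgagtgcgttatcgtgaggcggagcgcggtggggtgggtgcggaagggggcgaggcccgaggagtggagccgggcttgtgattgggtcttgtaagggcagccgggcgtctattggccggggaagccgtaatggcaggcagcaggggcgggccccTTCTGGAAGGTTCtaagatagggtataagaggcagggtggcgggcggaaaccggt
HSPB1, chr7:76302423-76302672, plus strand: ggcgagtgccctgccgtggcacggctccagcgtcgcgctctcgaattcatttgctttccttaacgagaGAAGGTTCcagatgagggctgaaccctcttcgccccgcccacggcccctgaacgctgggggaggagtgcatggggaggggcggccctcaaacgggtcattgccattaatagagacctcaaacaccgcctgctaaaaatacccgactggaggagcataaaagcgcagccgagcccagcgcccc
DNAJB1, chr19:14518398-14518647, minus strand: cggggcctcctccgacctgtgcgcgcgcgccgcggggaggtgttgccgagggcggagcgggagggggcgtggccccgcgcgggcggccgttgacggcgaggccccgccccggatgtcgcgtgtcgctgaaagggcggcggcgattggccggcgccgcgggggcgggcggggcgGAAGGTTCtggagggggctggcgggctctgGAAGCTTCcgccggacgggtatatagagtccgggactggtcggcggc
HSPH1, chr13:31162389-31162638, minus strand: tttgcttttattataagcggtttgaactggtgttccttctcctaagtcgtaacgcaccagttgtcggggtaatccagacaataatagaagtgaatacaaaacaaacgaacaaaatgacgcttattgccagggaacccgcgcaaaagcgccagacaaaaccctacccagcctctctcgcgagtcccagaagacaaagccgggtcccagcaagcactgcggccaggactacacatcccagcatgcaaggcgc
The pair's windows were identical at 235 aligned positions, with 14 mismatches and 2 gap positions (93.6% identity). Each of the pair had 1 match, which begins 106 bases before the start in HSPA1A and 105 in HSPA1B, and HSPB1 had 1 match, 182 bases before its start.

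Over the 10 genes, 7 had at least 1 match to either motif, each in 1 window. Counted by window, 7 of their 14 windows had a match. Of all 35116 RefSeq windows of this length, 11.6% had a match to either motif, 5.78% to GAANNTTC and 6.62% to TTCNNGAA. A run of 3 alternating units, in which the motifs overlap by 3 letters, was found for HSPA8, HSP90AA1 and HSPD1, in 1 window each. It was found in 0.441% of all windows. HSPH1, HSPE1 and BAG3 had no match in these windows. HSPD1 and HSPE1 point away from each other on chromosome 2 with 104 bases between them, and 1 of the HSPD1 windows shares those 104 bases with the HSPE1 window. A match describes the letters only, and binding was not measured here.

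A footprint value reflects mRNA abundance and ribosome loading together, and no matched RNA measurement was used here. Levels are FPKM, fragments scaled to the length of the gene and to the mapped fragments of the library. Whether that length was the whole transcript or its coding part was not given, so comparisons of level between genes are approximate. The libraries differed in depth. Relative to CFPAC-1 DMSO replicate 1, depth was 0.917 to 1.17 in the other CFPAC-1 libraries, 0.211 to 0.868 in PANC-1 IKE libraries and 0.329 to 0.505 in PANC-1 DMSO libraries. The 10 most abundant genes of a library took 8.51 to 9.64% of the summed FPKM in 7 libraries, against 16.2%, 12.2% and 23.1% in PANC-1 IKE replicates 2, 3 and 4. IKE replicates 2 and 4 were also the shallowest libraries. Cell identity markers were not analysed here, since the IDs of the table were not paired with names.

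In CFPAC-1 the order of the levels per length was led by the small heat shock protein and closed by Hsp110. With IKE, HSPB1 averaged 1244 ± 106 FPKM, HSPA8 517 ± 29.3 FPKM and HSPH1 5.83 ± 0.361 FPKM (SD, n = 2). With DMSO, HSPB1 averaged 1447 ± 101 FPKM, HSPA8 509 ± 14.3 FPKM and HSPH1 7.03 ± 0.467 FPKM (SD, n = 2). HSPE1 and HSP90AA1, which stood between HSPB1 and HSPA8, overlapped each other in both CFPAC-1 groups. In PANC-1 the same order was led by HSPA8, at 2560 ± 654 FPKM with IKE (SD, n = 4) and 1560 ± 837 FPKM with DMSO (SD, n = 2). HSPE1 was next in PANC-1, at 1507 ± 375 FPKM with IKE and 1490 ± 519 FPKM with DMSO, and its libraries overlapped those of HSPA8 in both groups. HSPH1 was the lowest of the 10 in PANC-1 by mean as well.

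**Figure D1:**
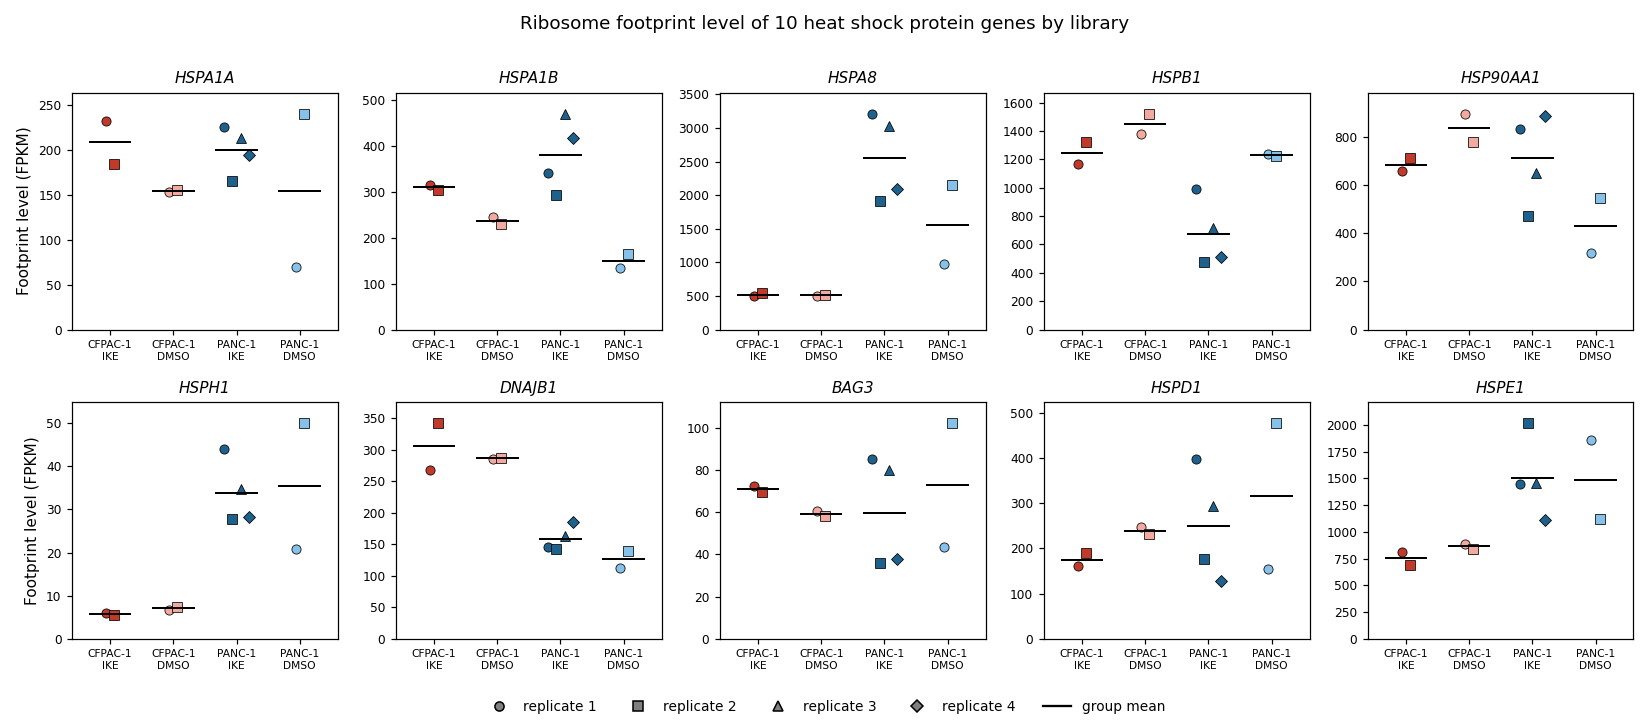
Footprint level (FPKM, linear axes starting at 0, 1 panel per gene) of the 10 genes in each library of CFPAC-1 IKE, CFPAC-1 DMSO, PANC-1 IKE and PANC-1 DMSO; marker shapes give the replicate and bars the group mean. The CFPAC-1 replicates lie close together, HSPA1B is higher and HSPB1 lower in all 4 PANC-1 IKE libraries than in both PANC-1 DMSO libraries, and the PANC-1 DMSO replicates lie far apart for HSPA1A, HSPD1, HSPH1, BAG3 and HSPA8.

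The first comparison asked which of the genes differed in CFPAC-1 cells that had survived 10 µM IKE. None of the 10 passed the test at an adjusted p under 0.05 in limma, and 4 of 10 had an unadjusted p under 0.05. The inducible pair stood at 1.35 (HSPA1A) and 1.31 (HSPA1B) times the DMSO mean, and HSPD1 at 0.732 times. Among all 12563 genes tested, 0.127% passed the adjusted threshold and 12.3% had an unadjusted p under 0.05. In bulk samples such as these, a smaller fraction of cells with a footprint and fewer footprints per cell cannot be told apart.

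HSPA1A had 232 and 184 FPKM in CFPAC-1 IKE libraries, against 154 and 155 FPKM in CFPAC-1 DMSO libraries. HSPA1B had 315 and 303 FPKM with IKE, against 244 and 229 FPKM with DMSO. Both IKE libraries lay above both DMSO libraries for each gene of the pair. Because reads of near-identical genes can be split between them, the sum of the pair is given as well. It was 548 and 487 FPKM with IKE, against 397 and 385 FPKM with DMSO. The log2 fold change was 0.42 ± 0.15 (SE, adjusted p = 0.333) for HSPA1A, 0.38 ± 0.11 (adjusted p = 0.271) for HSPA1B and 0.40 ± 0.11 (adjusted p = 0.267) for the sum, by limma. The share of the pair taken by HSPA1A was 42.4% and 37.8% with IKE, against 38.6% and 40.4% with DMSO, so the groups overlapped in that share.

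The mitochondrial chaperonin genes lay on the other side of 0. HSPD1 had 160 and 190 FPKM in CFPAC-1 IKE libraries, against 247 and 231 FPKM in CFPAC-1 DMSO libraries (log2 fold change −0.45 ± 0.13, adjusted p = 0.273, limma). HSPE1 had 814 and 692 FPKM with IKE, against 888 and 842 FPKM with DMSO (−0.20 ± 0.12, adjusted p = 0.553). For both genes all IKE libraries lay below all DMSO libraries. HSP90AA1 had 658 and 711 FPKM with IKE, against 896 and 781 FPKM with DMSO (−0.29 ± 0.12, adjusted p = 0.394). HSPB1 had 1169 and 1319 FPKM with IKE, against 1376 and 1519 FPKM with DMSO (−0.22 ± 0.12, adjusted p = 0.511). Neither passed the test, though the groups did not overlap for either gene.

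The partners of Hsp70 did not share a direction in CFPAC-1. BAG3 had 72.4 and 69.7 FPKM with IKE, against 60.6 and 58.0 FPKM with DMSO (log2 fold change 0.26 ± 0.13, adjusted p = 0.499, limma). HSPH1 had 6.08 and 5.57 FPKM with IKE, against 6.70 and 7.36 FPKM with DMSO (−0.23 ± 0.24, adjusted p = 0.752). Neither passed the test, and their groups did not overlap. DNAJB1 had 268 and 342 FPKM with IKE, against 286 and 286 FPKM with DMSO (0.08 ± 0.14, adjusted p = 0.868). HSPA8, the chaperone they serve, had 497 and 538 FPKM with IKE, against 499 and 519 FPKM with DMSO (0.02 ± 0.11, adjusted p = 0.962). Both of these overlapped between the groups. Counted over the 10 genes, 3 had both IKE libraries above both DMSO libraries and 5 had both below. The same held for 20.8% and 22.9% of all genes tested. The median log2 fold change was −0.09 for the 10 genes and −0.02 for all genes.

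The same question was asked of PANC-1 cells that had survived 1 µM IKE. Again none of the 10 genes passed at an adjusted p under 0.05, and 2 of 10 had an unadjusted p under 0.05, HSPA1B and HSPB1. HSPA1B was 2.54 times as high with IKE as with DMSO by group means, and HSPB1 0.548 times as high. Among all 12611 genes tested, 0.0159% passed the adjusted threshold and 11.1% had an unadjusted p under 0.05.

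HSPA1B had 341, 293, 469 and 417 FPKM in PANC-1 IKE libraries, against 134 and 165 FPKM in PANC-1 DMSO libraries. All 4 IKE libraries lay above both DMSO libraries. The log2 fold change was 1.32 ± 0.32 (SE, unadjusted p = 0.00184, adjusted p = 0.321, limma), which ranked it 71st of 12611 genes by p. Its partner HSPA1A had 225, 166, 213 and 194 FPKM with IKE, against 69.3 and 240 FPKM with DMSO, so that 1 DMSO library lay below and the other above every IKE library. Its log2 fold change was 0.61 ± 0.45 (adjusted p = 0.611), −0.27 without DMSO replicate 1 and 1.5 without DMSO replicate 2. The sum of the pair had 566, 459, 682 and 611 FPKM with IKE, against 203 and 405 FPKM with DMSO. The groups did not overlap in the sum, whose log2 fold change was 1.00 ± 0.36 (adjusted p = 0.408). HSPA1A took 39.8%, 36.1%, 31.2% and 31.7% of the pair with IKE, against 34.0% and 59.2% with DMSO. The groups overlapped in that share. The part of the split of reads within the pair in the HSPA1B and HSPA1A values was not tested.

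HSPB1 ran the other way. It had 990, 476, 714 and 508 FPKM in PANC-1 IKE libraries, against 1235 and 1220 FPKM in PANC-1 DMSO libraries. All 4 IKE libraries lay below both DMSO libraries, whose ratio, replicate 2 over replicate 1, was 0.988. The log2 fold change was −0.93 ± 0.37 (SE, unadjusted p = 0.0289, adjusted p = 0.424, limma). Without IKE replicates 2 and 4 the HSPB1 value was −0.55 (adjusted p = 0.651, within a range of 0.178 to 0.999 over 20 alternatives). As a share of the summed FPKM, HSPB1 took 0.0771%, 0.0349%, 0.0539% and 0.0394% with IKE, against 0.0878% and 0.104% with DMSO, and the groups did not overlap on this scale either. That sum includes the most abundant genes, whose share was uneven between these libraries. The log2 fold change was −0.96 with equal sums and −0.84 with the 10 most abundant genes left out of the sum. With quantile normalization it was −0.77.

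Of the remaining genes, DNAJB1 was the only other one whose groups did not overlap in PANC-1. It had 146, 142, 163 and 185 FPKM with IKE, against 113 and 140 FPKM with DMSO (log2 fold change 0.33 ± 0.30, adjusted p = 0.688, limma). HSPA8 had 3207, 1906, 3032 and 2096 FPKM with IKE, against 969 and 2152 FPKM with DMSO (0.79 ± 0.42, adjusted p = 0.499). HSP90AA1 had 834, 474, 649 and 889 FPKM with IKE, against 318 and 547 FPKM with DMSO (0.73 ± 0.38, adjusted p = 0.494). For both chaperones the higher DMSO library lay inside the range of the IKE libraries. The HSPA8 value was 0.21 without DMSO replicate 1 and 1.36 without DMSO replicate 2, and that of HSP90AA1 was 0.34 and 1.12. HSPH1 had 44.2, 27.7, 34.8 and 28.3 FPKM with IKE, against 20.8 and 50 FPKM with DMSO. HSPE1 had 1446, 2017, 1455 and 1112 FPKM with IKE, against 1857 and 1123 FPKM with DMSO. HSPH1, HSPE1, HSPD1 and BAG3 had log2 fold changes of 0.03, 0.03, −0.26 and −0.27, each smaller than its SE. Leaving out IKE replicates 2 and 4, the shallow libraries, HSPD1 was at 0.33 and BAG3 at 0.30.

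Counted over the 10 genes, 2 had all PANC-1 IKE libraries above both DMSO libraries and 1 had all below, while 7 overlapped. The shares among all genes tested were 10.6% above and 12.5% below. The median log2 fold change was 0.18 for the 10 genes and −0.03 for all genes. These values moved with the choice of DMSO library: without DMSO replicate 1 the median of the 10 was −0.05, and without DMSO replicate 2 it was 0.60.

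**Figure D2:**
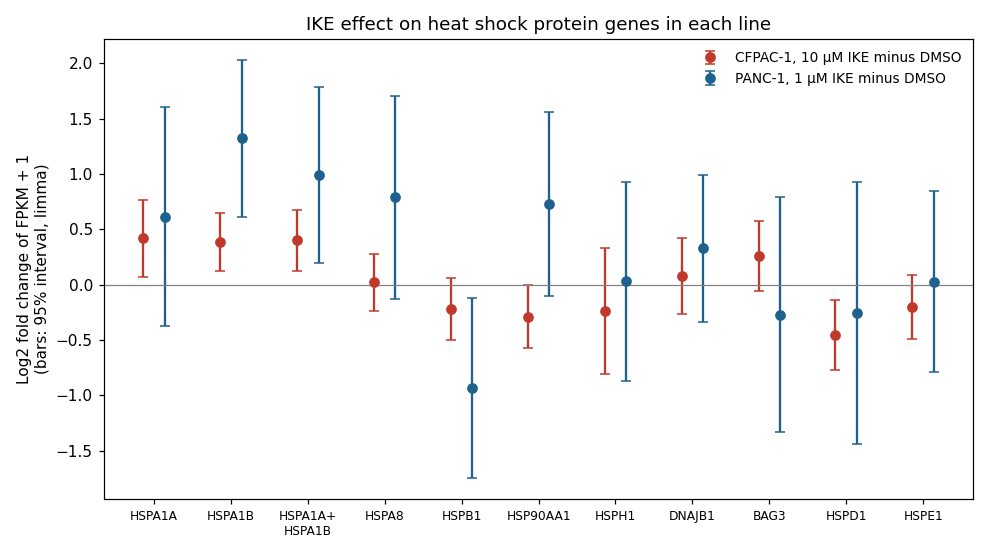
Log2 fold change of FPKM + 1, IKE minus DMSO, for the 10 genes and the sum of HSPA1A and HSPA1B, in CFPAC-1 (10 µM, red) and PANC-1 (1 µM, blue); points are limma estimates and bars their 95% intervals. HSPA1B (1.32 in PANC-1, 0.38 in CFPAC-1) and HSPB1 (−0.93 in PANC-1, −0.22 in CFPAC-1) have the same sign in both lines. So do HSPA1A, HSPA8, DNAJB1, HSPD1 and the sum of the pair. The sign changed under some alternatives for HSPA8 and DNAJB1 in CFPAC-1 and for HSPA1A and HSPD1 in PANC-1. The share of all genes with the same sign in both lines was not counted. The PANC-1 intervals are wider for every gene.

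Whether the IKE effect differed between the lines was tested as the PANC-1 effect minus the CFPAC-1 effect. None of the 10 genes passed, among 13125 genes of which 0.0305% did, and 1 of the 10 had an unadjusted p under 0.05, against 8.41% of all genes. The difference was 1.02 ± 0.47 for HSP90AA1 (95% interval −0.04 to 2.07, adjusted p = 0.606, limma), 0.94 ± 0.36 for HSPA1B (0.13 to 1.75, adjusted p = 0.557) and 0.77 ± 0.52 for HSPA8 (−0.40 to 1.93, adjusted p = 0.714). The order of these genes changed with the PANC-1 DMSO library. Without DMSO replicate 1 the differences were 0.63 for HSP90AA1, 0.79 for HSPA1B and 0.19 for HSPA8, and without DMSO replicate 2 they were 1.41, 1.09 and 1.34. For HSPB1 the difference was −0.71 ± 0.46 (−1.73 to 0.31, adjusted p = 0.692), and −0.33 without PANC-1 IKE replicates 2 and 4. For the sum of the inducible pair the difference was 0.60 ± 0.44 (−0.39 to 1.58). The doses differed 10-fold between the lines, so a difference between the lines and a difference between the doses cannot be told apart.

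The spread between replicate libraries was itself uneven across the 10 genes. In PANC-1 DMSO the level in replicate 2 over that in replicate 1 was 3.46 for HSPA1A, 3.09 for HSPD1, 2.40 for HSPH1, 2.34 for BAG3 and 2.22 for HSPA8. It was 1.72 for HSP90AA1, 1.24 for DNAJB1 and 1.23 for HSPA1B, against 0.988 for HSPB1 and 0.605 for HSPE1. Among all genes, 8.31% differed more than 2-fold in this direction, against 5 of the 10, and 41.4% were higher in replicate 2, against 8 of the 10. The median standard deviation of log2 values between these libraries was 0.68 for the 10 genes and 0.37 for all genes. The same medians were 0.36 and 0.47 in PANC-1 IKE, 0.10 and 0.15 in CFPAC-1 IKE, and 0.06 and 0.14 in CFPAC-1 DMSO. By this measure the 10 genes spread more than all genes in PANC-1 DMSO alone. None of the 10 genes differed 2-fold between replicates of either CFPAC-1 group.

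**Figure D3:**
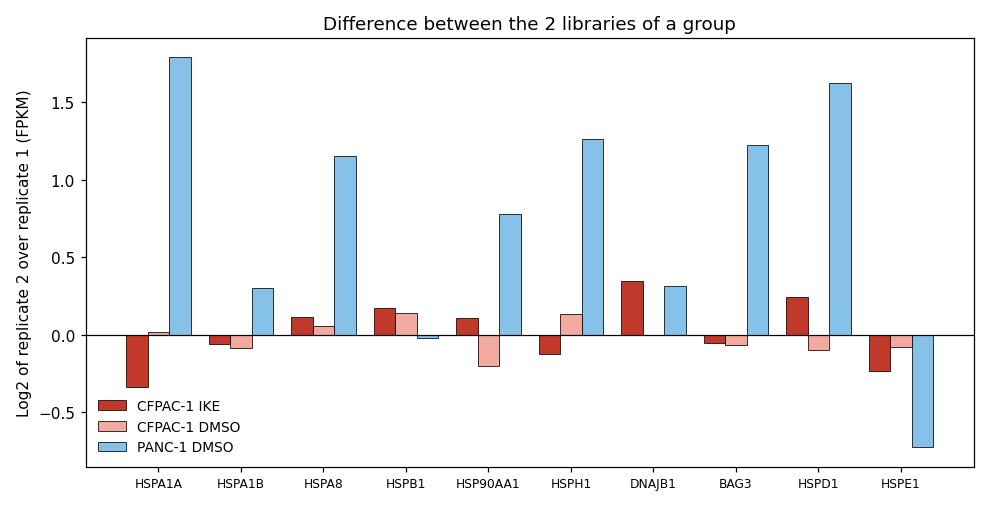
Log2 of the FPKM in replicate 2 over that in replicate 1, for each gene, in the 3 groups with 2 libraries (CFPAC-1 IKE, CFPAC-1 DMSO, PANC-1 DMSO). Bars of PANC-1 DMSO exceed 1 for HSPA1A, HSPA8, HSPH1, BAG3 and HSPD1, while those of HSPB1 and HSPE1 lie below 0.

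The same 5 genes split the 6 PANC-1 libraries in a way that crossed the treatment. For HSPA1A, HSPA8, HSPH1, HSPD1 and BAG3 the 3 highest libraries were DMSO replicate 2 and IKE replicates 1 and 3, and the 3 lowest were DMSO replicate 1 and IKE replicates 2 and 4. HSPD1 shows the size of this split: it had 477 FPKM in DMSO replicate 2 and 397 and 295 FPKM in IKE replicates 1 and 3, while the other 3 libraries held 128 to 177 FPKM. BAG3 had 102, 85.1 and 79.9 FPKM in the same 3 libraries and 36.1 to 43.6 FPKM in the others. This split was noticed in the values, and 1183 of all 12611 genes (9.38%) showed it. The relative depth of the 3 higher libraries was 0.329, 0.868 and 0.505, and that of the 3 lower ones 0.505, 0.237 and 0.211. The part of depth in the split was not tested.

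The 10 genes together took 0.601%, 0.419%, 0.536% and 0.434% of the summed FPKM in PANC-1 IKE libraries, against 0.349% and 0.527% in PANC-1 DMSO libraries. In CFPAC-1 the share was 0.339% and 0.353% with IKE, against 0.371% and 0.365% with DMSO. The treatment groups overlapped in PANC-1 and did not in CFPAC-1.

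Without IKE, the lines themselves differed in which of these genes led. In DMSO, HSPH1 and HSPA8 were higher in PANC-1 than in CFPAC-1 and DNAJB1 was lower, each past the test. The other 7 genes did not pass it. HSPH1 had 20.8 and 50 FPKM in PANC-1 DMSO libraries, against 6.70 and 7.36 FPKM in CFPAC-1 DMSO libraries (log2 difference 2.06 ± 0.41, adjusted p = 0.00339, limma). HSPA8 had 969 and 2152 FPKM in PANC-1, against 499 and 519 FPKM in CFPAC-1 (1.5 ± 0.40, adjusted p = 0.0149). DNAJB1 had 113 and 140 FPKM in PANC-1, against 286 and 286 FPKM in CFPAC-1 (−1.18 ± 0.25, adjusted p = 0.00512). The lines did not overlap for any of the 3.

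The HSPA8 call did not hold without PANC-1 DMSO replicate 2 (log2 difference 0.93, adjusted p = 0.0885), CFPAC-1 DMSO replicate 1 (adjusted p = 0.0894) or CFPAC-1 DMSO replicate 2 (adjusted p = 0.0791), within a range of 0.00352 to 0.0894 over its 22 alternatives. HSPH1 and DNAJB1 passed under each of 22 alternatives. Of the genes that did not pass, HSP90AA1 had 318 and 547 FPKM in PANC-1, against 896 and 781 FPKM in CFPAC-1 (−1.0 ± 0.36, adjusted p = 0.054). HSP90AA1 passed in 5 of 22 alternatives, those with library weights and those without PANC-1 IKE replicate 2, IKE replicate 4, both of these, or DMSO replicate 2, within a range of adjusted p from 0.0191 to 0.291. HSPA1B had 134 and 165 FPKM in PANC-1, against 244 and 229 FPKM in CFPAC-1 (−0.66 ± 0.28, adjusted p = 0.0897). HSPE1 had 1857 and 1123 FPKM in PANC-1, against 888 and 842 FPKM in CFPAC-1 (0.74 ± 0.34, adjusted p = 0.122). The lines did not overlap for these genes either. Without PANC-1 IKE replicates 2 and 4, HSPA1B (adjusted p = 0.0383) and HSPE1 (adjusted p = 0.0431) passed as well. Without PANC-1 DMSO replicate 2, HSPE1 (adjusted p = 0.0476) and HSPA1A (log2 difference −1.15, adjusted p = 0.0193) passed. Over the alternatives the adjusted p ran from 0.0193 to 0.914 for HSPA1A, 0.0383 to 0.284 for HSPA1B and 0.0431 to 0.490 for HSPE1. HSPB1, at −0.24 ± 0.35, was lower in both PANC-1 libraries, while HSPA1A, HSPD1 and BAG3 overlapped.

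Differences between the lines were common across the table. Among the 13125 genes tested 15.1% were called higher in PANC-1 DMSO and 18.5% lower, against 2 and 1 of the 10. Both PANC-1 DMSO libraries lay above both CFPAC-1 DMSO libraries for 3 of the 10 genes and 33.8% of all genes, and below for 4 of the 10 and 36.8% of all genes. Over all libraries whatever the treatment, HSPA8, HSPH1 and HSPE1 were higher in each of the 6 PANC-1 libraries than in any of the 4 CFPAC-1 libraries, as were 19.4% of genes. DNAJB1 was lower in each PANC-1 library, as were 25.0% of genes. HSPA8 was the 47th to 92nd most abundant gene in PANC-1 IKE libraries and the 260th and 67th in PANC-1 DMSO libraries. In CFPAC-1 it was the 429th and 391st with IKE and the 454th and 448th with DMSO.

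**Figure D4:**
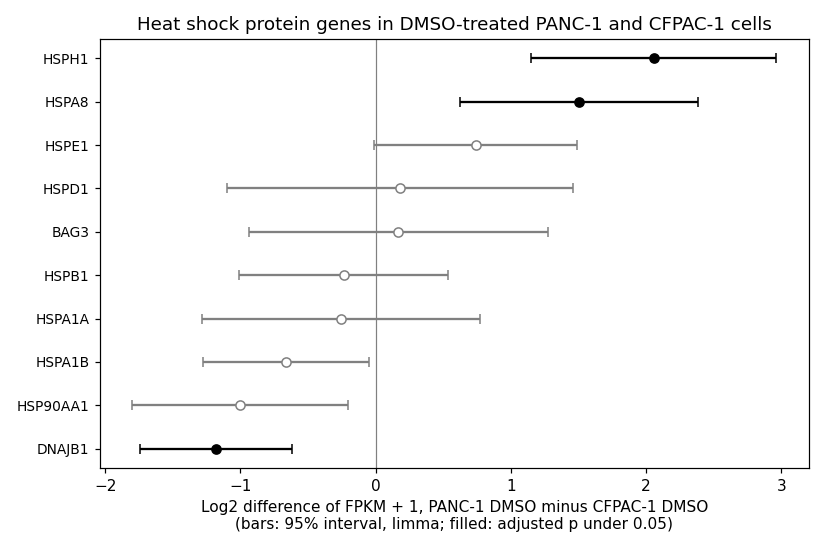
Log2 difference of FPKM + 1, PANC-1 DMSO minus CFPAC-1 DMSO, for the 10 genes, sorted by value; points are limma estimates, bars 95% intervals, and filled points have an adjusted p under 0.05. HSPH1 (2.06) and HSPA8 (1.5) lie to the right and DNAJB1 (−1.18) to the left.

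Ratios between members within a library do not depend on the scaling of that library. With 2 libraries against 2 the smallest two-sided p of an exact permutation test is 0.333, and with 4 against 2 it is 0.133, so no ratio could pass a threshold of 0.05. The ratio of HSPB1, a holdase, to HSPA8 was 0.309, 0.250, 0.235 and 0.243 in PANC-1 IKE libraries, against 1.27 and 0.567 in PANC-1 DMSO libraries. In CFPAC-1 it was 2.35 and 2.45 with IKE, against 2.76 and 2.92 with DMSO. In both lines every IKE library lay below every DMSO library of that line, with exact permutation p = 0.133 in PANC-1 and 0.333 in CFPAC-1. Against HSP90AA1 the separation held in PANC-1 alone: HSPB1 over HSP90AA1 was 1.19, 1.01, 1.1 and 0.572 in PANC-1 IKE libraries, against 3.89 and 2.23 in PANC-1 DMSO libraries (exact permutation p = 0.133). In CFPAC-1 this ratio was 1.78 and 1.85 with IKE, against 1.54 and 1.95 with DMSO (exact permutation p = 1.0), and the groups overlapped.

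The inducible pair over constitutive HSPA8 stood at 1.1 and 0.905 in CFPAC-1 IKE libraries, against 0.796 and 0.741 in CFPAC-1 DMSO libraries. In PANC-1 it was 0.177, 0.241, 0.225 and 0.291 with IKE, against 0.210 and 0.188 with DMSO. The groups did not overlap in CFPAC-1 and overlapped in PANC-1, and the pair stood lower against HSPA8 in every PANC-1 library than in any CFPAC-1 library. DNAJB1 over the pair was 0.257, 0.311, 0.239 and 0.302 in PANC-1 IKE libraries, against 0.554 and 0.346 in PANC-1 DMSO libraries. In CFPAC-1 this ratio was 0.490 and 0.702 with IKE, against 0.720 and 0.744 with DMSO. It was lower in every IKE library than in the DMSO libraries of the same line (exact permutation p = 0.133 in PANC-1 and 0.333 in CFPAC-1). In each line the pair alone was higher, and HSPB1 alone lower, in every IKE library. The ratios that separate partly restate those values. Single genes separated upward and downward in 20.8% and 22.9% of cases in CFPAC-1, and 10.6% and 12.5% in PANC-1. The share of gene pairs whose ratio separates was not counted.

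Hsp10 and Hsp60 work together and their genes adjoin, yet their footprint levels did not keep 1 ratio in PANC-1. HSPE1 over HSPD1 was 3.64, 11.4, 4.94 and 8.68 in PANC-1 IKE libraries, against 12.0 and 2.36 in PANC-1 DMSO libraries. In CFPAC-1 it was 5.08 and 3.65 with IKE, against 3.59 and 3.65 with DMSO. The groups overlapped in both lines. The 3 PANC-1 libraries with the highest ratios were those with the lowest HSPD1 level.

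**Figure D5:**
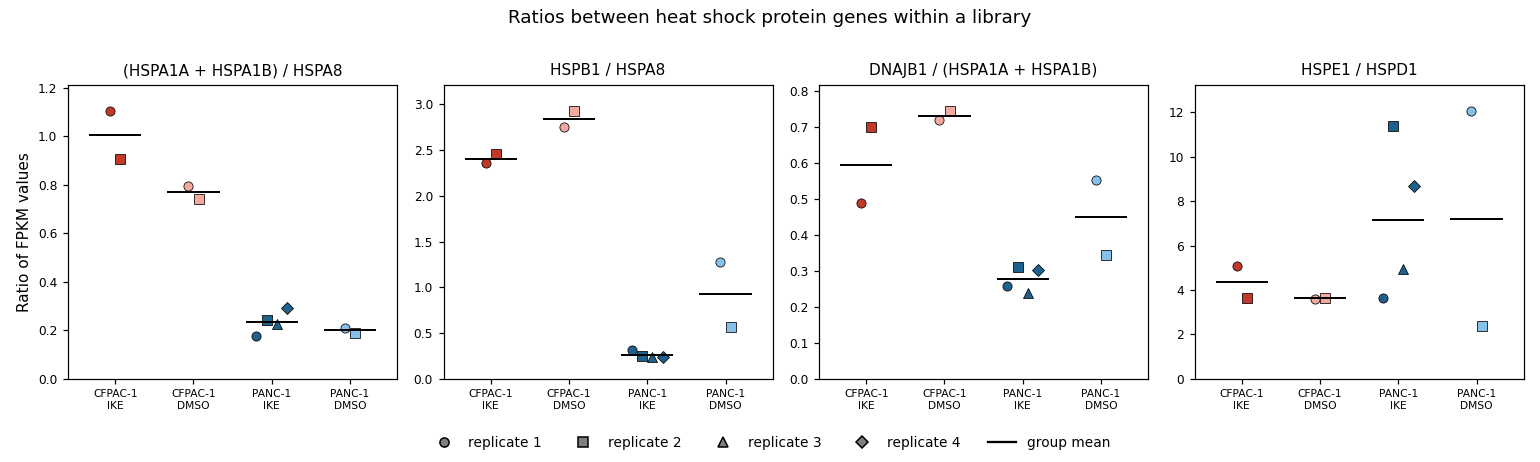
Ratio of FPKM values within each library (linear axes starting at 0) for the inducible pair over HSPA8, HSPB1 over HSPA8, DNAJB1 over the inducible pair and HSPE1 over HSPD1, by group; marker shapes give the replicate and bars the group mean. HSPB1 over HSPA8 is 0.235 to 0.309 in PANC-1 IKE libraries and 0.567 and 1.27 in PANC-1 DMSO libraries, and HSPE1 over HSPD1 spreads from 2.36 to 12.0 in PANC-1.

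The genes whose pattern was most like the average of the 10 across the 10 libraries, after removal of each line's mean, were ENSG00000278053 (Pearson r = 0.990) and ENSG00000086061 (r = 0.974), among 6588 genes whose mean reached 20 FPKM. The libraries share depth and scaling, and the r values are a description. The average of the 10 ran from −0.09 to 0.06 in CFPAC-1 libraries and from −1.19 to 0.79 in PANC-1 libraries. The r values therefore rest mainly on PANC-1. ENSG00000086061 had 407, 215, 329 and 254 FPKM in PANC-1 IKE libraries, against 163 and 377 FPKM in PANC-1 DMSO libraries. ENSG00000278053 had 23.6, 11.2, 18.6 and 11.5 FPKM with IKE, against 5.63 and 17.2 FPKM with DMSO. In PANC-1 both were highest in IKE replicate 1 and lowest in DMSO replicate 1, as HSPA8 was. In CFPAC-1, ENSG00000086061 had 135 and 153 FPKM with IKE, against 160 and 146 FPKM with DMSO. There ENSG00000278053 had 116 and 122 FPKM with IKE, against 139 and 137 FPKM with DMSO.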

How the data were processed

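Per the file headers, the authors deposited FPKM values, a column for each of the 10 libraries and a row for each of 20289 genes, and every column was matched to its library by name. Tools in the submitters' processing notes, listed there with no role or order, include fastp, STAR, RSEM, DESeq2 and Bowtie2 2.2.8, and the build is GRCh38. The annotation, strand setting and footprint length filter were not given in the sources used here. Values of near-identical or overlapping genes are uncertain for that reason. The 10 genes and the tests were chosen with earlier results of these data known.

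Log2(FPKM + 1) was fitted with limma 3.58.1 in R 4.3.3 (mean-variance trend, Benjamini-Hochberg over all genes whose mean reached 1 FPKM). IKE effects were fitted on each line's own libraries, because earlier work found unequal spread between the lines. The difference of effects and the DMSO comparison used all 4 groups in a single model, which pooled the spread of both lines. Log2 fold changes are on the log2(FPKM + 1) scale, which understates changes of low values.

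Depth was not stated. Relative depth was estimated from genes with low values above 0 in both a library and CFPAC-1 DMSO replicate 1. It was the most frequent ratio of the FPKM in CFPAC-1 DMSO replicate 1 to that in the library. This assumes that the most frequent ratio comes from genes with a single read in each library. No absolute depth, interval or count test was possible. HSPA1A and HSPA1B were also summed. A ratio was compared by an exact two-sided permutation test over libraries. Motifs were searched in RefSeq windows. Same-numbered libraries of IKE and DMSO had deviations that correlated at 0.0496 in CFPAC-1 and −0.21 in PANC-1, so the numbers were not taken as pairs. The named comparator genes are those with the highest Pearson r to the mean standardised level of the 10 genes. Lists of related pathway genes and cell markers were not used here, because no table paired the IDs with names. Other scalings, pseudocounts, filters, library weights, a replicate block and each library left out were tried as alternatives.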

Additional observations from a re-analysis of the deposited data

How the results depend on the processing

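None of the 10 genes was called for IKE in CFPAC-1, for IKE in PANC-1 or for the difference between the lines, under any alternative run, and the lowest adjusted p values were 0.182, 0.0762 and 0.216. The count of called genes in the DMSO comparison, 3 of 10, was 2 to 5 with 1 library left out, 5 without PANC-1 DMSO replicate 2 and 6 without PANC-1 IKE replicates 2 and 4. The replicate block was fitted on replicates 1 and 2 alone, so PANC-1 IKE replicates 3 and 4 were left out of it. Except for IKE in CFPAC-1, the change of model and the change of libraries cannot be told apart. With the block, 0 of the 10 genes were called for IKE in CFPAC-1, IKE in PANC-1 or the difference. In the DMSO comparison 3 were called, so no call changed. Over all genes the block called 65 in CFPAC-1 against 16, 6 in PANC-1 against 2, 0 for the difference against 4, and 4688 in the DMSO comparison against 4410. Over the other alternatives these counts ran over 0 to 19, 0 to 3, 0 to 5 and 2474 to 5856.

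Of the uncalled values, some changed sign. For IKE in PANC-1 these were HSPE1 with equal sums (−0.0024), HSPD1 (0.036) and BAG3 (0.044) with library weights, and HSPD1 (0.33) and BAG3 (0.30) without IKE replicates 2 and 4. The BAG3 difference between the lines was 0.044 without IKE replicates 2 and 4. With 1 library left out, IKE values in CFPAC-1 ran from −0.036 to 0.079 for HSPA8 and −0.092 to 0.26 for DNAJB1. In PANC-1 they ran from −0.27 to 1.5 for HSPA1A, −0.58 to 0.65 for HSPH1, −1.07 to 0.56 for HSPD1, −0.33 to 0.39 for HSPE1 and −0.87 to 0.34 for BAG3. The difference ran from −0.69 to 1.08 for HSPA1A, −0.34 to 0.88 for HSPH1, −0.62 to 1.01 for HSPD1, −0.13 to 0.59 for HSPE1 and −1.13 to 0.079 for BAG3. The DMSO comparison ran from −1.15 to 0.63 for HSPA1A, −0.63 to 0.99 for HSPD1 and −0.44 to 0.77 for BAG3. HSPA1B, HSPB1 and HSP90AA1 kept their sign in every alternative run for IKE in both lines. For HSP90AA1 the sign differed between the lines, at −0.39 to −0.15 in CFPAC-1 and 0.34 to 1.12 in PANC-1. The cause was not tested. With 2 libraries in 3 of the 4 groups, absent calls do not show absent differences.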
